A study of Mus musculus with 768 samples.

Results

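Kinesins are motor proteins that walk along microtubules or take them apart at their ends. The genes described here are all rows of the table whose symbol is KIF followed by a number and an optional letter A to C, 38 of 27723 genes, and the names are printed in the capitals of the table. The rule sets 5 genes of the dividing cell, KIF11, KIF20A, KIF23, KIF4 and KIF2C, against 5 motors that carry cargo in axons, KIF5A, KIF5C, KIF1A, KIF1B and KIF3A. The study took single mouse cells from embryoid bodies of the embryonic stem cell line Ainv15(iNgn2.Isl1.Lhx3.V5), which expresses Ngn2, Isl1 and Lhx3 with a V5 tag from a cassette that doxycycline induces, a factor combination known to direct pluripotent cells towards spinal motor neurons. All groups carry the cassette and no line without it enters the comparisons. The groups are 8 time points: before doxycycline, called 0 h, and 6, 12, 18, 24, 30, 36 and 48 h after adding it at 3 µg/ml to embryoid bodies 2 days old, with 96 viable cells sorted at each. Each library was made by SMART-Seq2, which copies whole transcripts, keeps no strand and here carried no molecular identifiers. Values are TPM, which are scaled for transcript length and sum to a fixed total in each cell.

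In mitosis, plus-end motors slide antiparallel microtubules apart to form the spindle, chromokinesins act on chromosome arms, kinesin-13 enzymes shorten microtubule ends, and the central spindle motors organise the division site of the parting daughter cells. A postmitotic neuron has no spindle and relies on kinesin-1, kinesin-2 and kinesin-3 motors to move organelles, vesicle precursors and proteins from the cell body into the axon. Genes of late cell cycle phases are known to share a promoter element called the cell cycle genes homology region, or CHR, often near CCAAT boxes.

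The promoters of a few members are shown as examples. From 6 to 30 h the mitotic kinesins of the rule varied together across cells more than the transport ones, as described further on. This was not so at 0, 12 and 36 h. Whether the promoter letters have a part in the shared variation was not tested. Each line gives 120 bases before and 30 from the RefSeq start (GRCm38.p6), 5′ to 3′ on the gene's strand, and capitals mark every match, on either strand, to the CHR letters TTTGAA, read in reverse as TTCAAA, or to the CCAAT letters, which read ATTGG when reversed. The first 4 lines are mitotic genes, each with both motifs, and the last 2 are transport genes with CCAAT letters only. KIF22 was not among the genes whose shared variation was measured. KIF2C was among them but is not printed, and its longer window, described below, held CHR but no CCAAT letters. KIF18A, whose longer window held neither motif, is not printed either.
KIF11, chr19:37376262-37376411, plus strand: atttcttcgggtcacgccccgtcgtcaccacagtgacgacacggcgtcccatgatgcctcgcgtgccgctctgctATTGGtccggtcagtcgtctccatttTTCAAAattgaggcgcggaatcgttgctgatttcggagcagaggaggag
KIF23, chr9:61946770-61946919, minus strand: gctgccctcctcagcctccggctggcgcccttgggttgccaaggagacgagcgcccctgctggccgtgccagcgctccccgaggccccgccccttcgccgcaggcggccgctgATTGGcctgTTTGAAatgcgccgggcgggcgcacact
KIF4, chrX:100625945-100626094, plus strand: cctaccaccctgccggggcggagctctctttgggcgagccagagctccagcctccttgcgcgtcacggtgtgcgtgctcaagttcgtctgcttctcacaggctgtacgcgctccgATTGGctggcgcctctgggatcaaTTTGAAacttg
KIF22, chr7:127042391-127042540, minus strand: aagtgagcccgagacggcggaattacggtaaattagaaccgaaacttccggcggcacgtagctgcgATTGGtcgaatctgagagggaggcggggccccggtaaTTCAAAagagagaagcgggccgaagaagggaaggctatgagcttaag
KIF1B, chr4:149307704-149307853, minus strand: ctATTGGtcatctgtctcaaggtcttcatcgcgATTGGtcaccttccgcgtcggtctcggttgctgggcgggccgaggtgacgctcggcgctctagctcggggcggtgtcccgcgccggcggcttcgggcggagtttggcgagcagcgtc
KIF3A, chr11:53567249-53567398, plus strand: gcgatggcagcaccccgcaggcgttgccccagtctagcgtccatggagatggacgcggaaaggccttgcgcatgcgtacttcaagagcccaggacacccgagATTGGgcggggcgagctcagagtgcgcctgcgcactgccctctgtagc

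In KIF11 the CHR letters began 19 bases before the start, at -19, with a CCAAT box in reverse at -45. KIF23 had them at position 3 with the CCAAT letters at -7, and KIF4 at position 20 with CCAAT at -5. In KIF22 the nearest CHR letters were at -17 and the nearest CCAAT letters at -54. The windows searched were longer, 250 bases before to 50 after each start, and a match of one motif may share a base with a match of the other. The CHR letters were in the windows of 4 of the 4 mitotic kinesins of the rule with an entry and of 5 of 6 other mitotic members, KIF14, KIF15, KIF18B, KIF20B and KIF22 but not KIF18A. They were in the window of 1 of 4 transport kinesins with an entry, the second of the KIF1A starts, and of 0 of 7 other transport members. Over all 32851 RefSeq promoter windows, 17.9% held the CHR letters, 37.4% held CCAAT and 6.95% held both. Both motifs stood in 3 of the 4 mitotic windows, in 3 of the 6 other mitotic ones, and in none of the 4 transport or 7 other transport genes. The windows of KIF2C, KIF14, KIF3A and KIF21A and the second window of KIF1A lie wholly inside the annotated gene, whose longest form starts further upstream. A match describes these letters only.

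Cells in which fewer than 2000 genes were detected were set aside, which left 368 cells: 37, 52, 44 and 14 at 0, 12, 36 and 48 h, and 53, 56, 55 and 57 at 6, 18, 24 and 30 h. Each time point is 1 sample, since no separate cultures are named, so no test was possible, every spread is between cells of that sample, and sizes are described. Time points were compared only within the sets 0, 12, 36 and 48 h and 6, 18, 24 and 30 h, because the sets differ throughout: mean Sod1 lay between 19553 and 65262 TPM in the first and between 518 and 807 TPM in the second. Median genes per kept cell ran from 6481 to 7484 in the second set, but in the first were 5304 before doxycycline, 2894 at 36 h and 2141 at 48 h. Libraries were made in batches that the labels do not tie to cells. The sample labels were checked with marker genes. From 6 to 30 h the summed mean level of 8 pluripotency genes was 2759, 1189, 1386 and 947 TPM and that of 9 neuronal genes 235, 296, 653 and 666 TPM. From 0 to 48 h, the pluripotency sum was 5605, 2318, 476 and 259 TPM and the neuronal sum 63.1, 467, 2791 and 3554 TPM. The sum of 5 motor neuron markers, which include the induced ISL1 and LHX3, was 38.1, 69.4, 68.4 and 88.8 TPM from 6 to 30 h. From 0 to 48 h it was 3.49, 310, 362 and 192 TPM, with median cells of 0, 225, 35.6 and 9.61 TPM. Summed endoderm markers stayed at 4.93 TPM or less. The sum of 4 mesoderm markers was higher at every later time than at the start of each set, at 1.20, 21.0, 38.3 and 50.4 TPM from 6 to 30 h and 12.8, 46.9, 190.1 and 25.2 TPM from 0 to 48 h, with MESP1 at 0 at all times but 36 h and a median cell of 0 throughout. The glial sum was 3.77, 6.90, 14.0 and 13.0 TPM from 6 to 30 h, and from 0 to 48 h 0.991, 6.47, 37.5 and 1.40 TPM, with GFAP and AQP4 at 0 at most times. The 2 blood markers in the table of 4 listed summed to 10.7, 8.65, 1.34 and 1.35 TPM from 6 to 30 h and to 26.6, 23.2, 1.26 and 31.7 TPM from 0 to 48 h. The fibroblast sum, nearly all from COL1A2 with POSTN at 0 throughout, was 21.7 to 30.2 TPM in the second set and 51.5 to 247 TPM in the first. The part of these differences in composition and depth in the kinesin results was not tested.

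The balance of the 2 groups of motors moved towards transport in both sets. At 6 h the 5 mitotic kinesins summed to a mean of 207 TPM per cell (SD 170.0 over 53 cells) and the 5 transport kinesins to 39.1 TPM (SD 36.8), a ratio of 5.29. It then went to 3.69, 2.30 and 2.55 (18, 24 and 30 h), and at 30 h the mitotic sum was 206 TPM (SD 270 over 57 cells) and the transport sum 80.7 TPM (SD 76.2). At 0, 12, 36 and 48 h the ratios were 2.73, 1.53, 1.06 and 1.11. There the mitotic sum was 168, 172, 226 and 280 TPM and the transport sum 61.4, 112, 212 and 252 TPM. Both means were thus higher later in this set, the transport sum by more. At 48 h single cells held 87.2% of the KIF3A sum and 67.0% of the KIF1B sum. The log2 ratio thus changed by -1.03 from 6 to 30 h, by -0.82 from 0 to 12 h, by -1.35 from 0 to 36 h and by -1.29 from 0 to 48 h. These last 3 changes share the 0 h cells. The mean of the mitotic sum hardly moved between 6 and 30 h, so the change in ratio there lay in the transport sum.

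The cell in the middle told more of the mitotic sum than the mean did. From 6 to 30 h its medians were 168, 133, 173 and 107 TPM, while the highest cell held 668, 566, 911 and 1352 TPM. In the set with 0 h the medians were 96.9, 68.6, 9.20 and 14.9 TPM, against highest cells of 552, 1076, 3601 and 2290 TPM. The highest cell stood furthest above the median cell at 36 and 48 h. The transport sum had medians of 27.3, 39.7, 53.9 and 55.8 TPM from 6 to 30 h and of 49.7, 84.5, 106 and 105 TPM from 0 to 48 h. The mitotic sum was above the transport sum in 45 of 53 cells at 6 h and in 34 of 57 at 30 h. The same held for 22 of 37 cells before doxycycline and for 23 of 52, 16 of 44 and 6 of 14 at 12, 36 and 48 h.

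**Figure D1:**
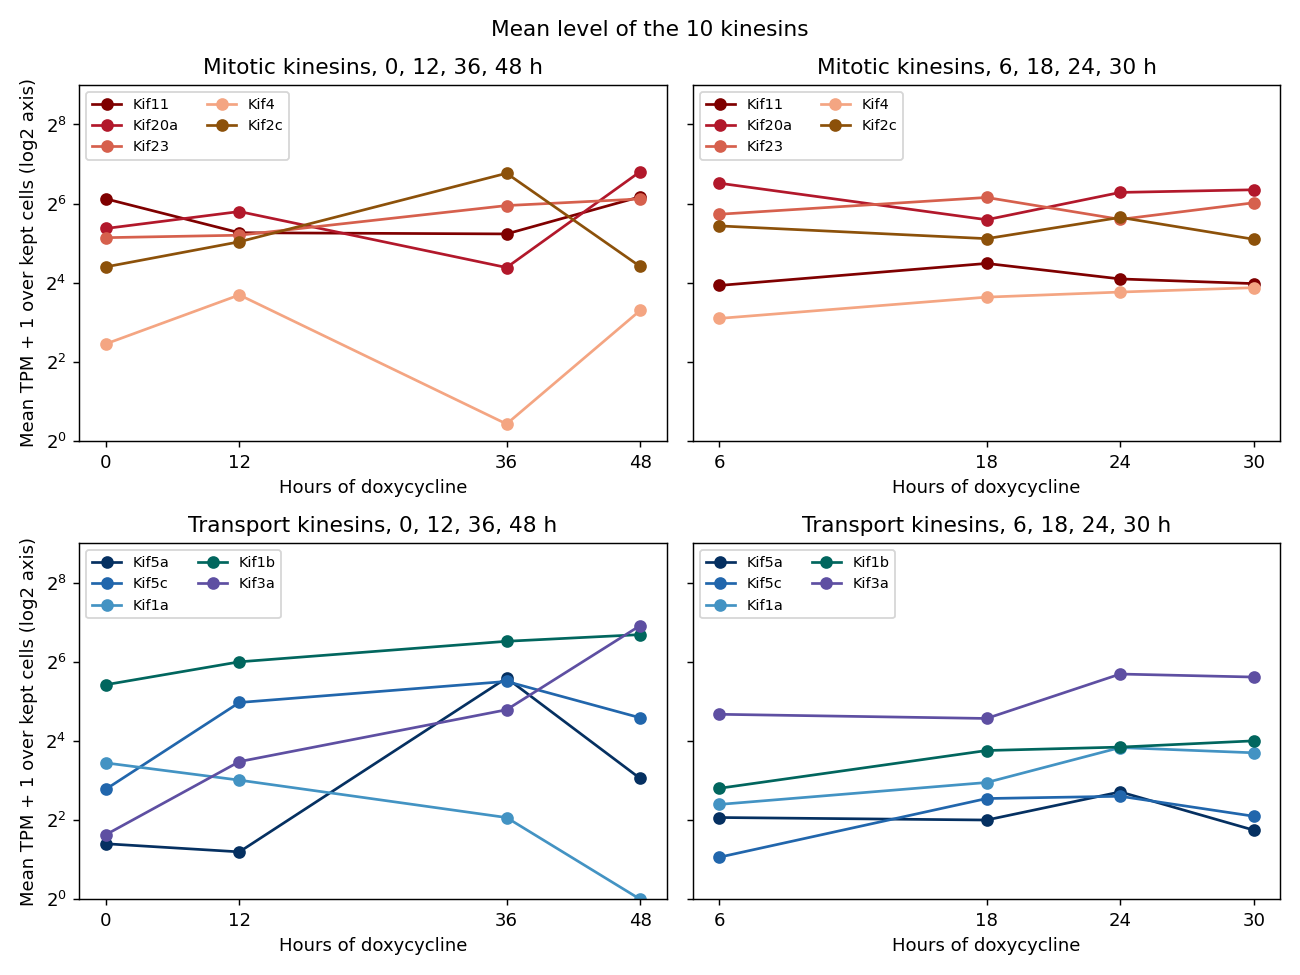
Mean TPM + 1 over kept cells (log2 axis) of the 5 mitotic kinesins (upper row) and the 5 transport kinesins (lower row) against hours of doxycycline, for the sets 0, 12, 36, 48 h (left) and 6, 18, 24, 30 h (right); each point is 1 time point. At 30 h the mitotic KIF4 and the transport genes KIF1A, KIF1B, KIF3A and KIF5C are higher than at 6 h. KIF11, KIF20A, KIF23, KIF2C and KIF5A end nearer to their 6 h level.

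KIF11, the plus-end motor that pushes the spindle poles apart, had mean levels of 14.3, 21.4, 16.1 and 14.8 TPM at 6, 18, 24 and 30 h. At 6 h it was above 0 in 39 of 53 cells (73.6%, exact 95% binomial interval 59.7 to 84.7%) and in 24 of 57 at 30 h (42.1%, 29.1 to 55.9%), and its median cell went from 10.3 TPM to 0. Intervals here and below are Clopper-Pearson ones and cover counting error only. The lowest cell of every member but KIF15 at 0 h and KIF24 at 48 h was at 0, and the highest KIF11 cells held 64.2 and 114 TPM (6 and 30 h). Over 0, 12, 36 and 48 h KIF11 averaged 68.6, 37.4, 36.6 and 71.1 TPM, in 73.0%, 42.3%, 25.0% and 42.9% of cells. At 36 h a single cell of 965 TPM held 59.8% of all KIF11 TPM.

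KIF20A, which brings the Aurora B complex to the central spindle, had the highest level of the 5 at 6, 24 and 30 h. Its means were 90.5, 47.3, 76.9 and 80.6 TPM from 6 to 30 h, with median cells of 87.0, 29.2, 50.1 and 32.0 TPM and highest cells of 306, 155, 384 and 483 TPM. At 6 h 44 of 53 cells had it above 0 (83.0%, 70.2 to 91.9%) and 36 of 57 at 30 h (63.2%, 49.3 to 75.6%). At 0, 12, 36 and 48 h it averaged 40.4, 54.7, 19.9 and 111 TPM in 59.5%, 40.4%, 27.3% and 28.6% of cells, and the 48 h mean rested on a cell of 1061 TPM that held 68.2% of the sum. The span of KIF20A overlaps Cdc23 on the other strand, and without strand their reads cannot be told apart.

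KIF23, the motor subunit of the centralspindlin complex that builds the midbody, averaged 52.1, 70.3, 47.6 and 63.9 TPM from 6 to 30 h. Its median cell went from 42.4 to 2.90 TPM between 6 and 30 h, while the highest cells held 162 and 421 TPM. The share above 0 was 81.1% at 6 h (43 of 53 cells, 68.0 to 90.6%) and 63.2% at 30 h (36 of 57, 49.3 to 75.6%). From 0 to 48 h its means were 34.2, 35.8, 60.9 and 68.5 TPM in 45.9%, 36.5%, 22.7% and 28.6% of cells, so that the mean was higher where fewer cells had it. A single cell held 50.2% of the KIF23 sum at 36 h and 89.9% at 48 h.

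KIF2C, a kinesin-13 that shortens microtubules at centromeres, averaged 42.3, 33.6, 49.2 and 33.3 TPM from 6 to 30 h. At 6 h it was seen in 38 of 53 cells (71.7%, 57.7 to 83.2%) and 26 of 57 at 30 h (45.6%, 32.4 to 59.3%), and its median cell went from 25.0 TPM to 0. The means at 0, 12, 36 and 48 h were 20.1, 31.8, 108 and 20.3 TPM, in 32.4%, 21.2%, 13.6% and 21.4% of cells. The high 36 h value came from 6 of 44 cells, among them a cell of 2179 TPM that held 45.9% of the sum.

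KIF4, a chromokinesin that also limits the growth of the central spindle, was the lowest of the 5 in the second set. It averaged 7.57, 11.4, 12.6 and 13.7 TPM from 6 to 30 h. Of the 53 cells at 6 h, 26 had it (49.1%, 35.1 to 63.2%) as did 23 of 57 at 30 h (40.4%, 27.6 to 54.2%). In the cells that had it the median level went from 9.15 TPM to 28.1 TPM. At 0, 12, 36 and 48 h its means were 4.48, 11.9, 0.347 and 8.84 TPM, in 6, 7, 2 and 2 cells. KIF4 overlaps Pdzd11 on the other strand.

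Taken by fold change of the mean, none of these 5 was 2-fold lower at 30 h than at 6 h. Genes entered this comparison if the time point with the higher mean had 10 TPM or more and 25% or more of its cells above 0, called passing from here on, and folds are log2 ratios of mean TPM + 1, which understates the change of low genes. All 5 passed, with log2 folds of 0.05 (KIF11), -0.17 (KIF20A), 0.29 (KIF23), 0.78 (KIF4) and -0.34 (KIF2C). Of all 6317 genes that passed, 6.03% were at least 2-fold lower and 13.9% at least 2-fold higher, with a median of 0.20. When the fold was taken between means of log2(TPM + 1), which weighs the empty cells more, KIF20A at -1.22, KIF23 at -1.06 and KIF2C at -1.42 were at least 2-fold lower. These were the 3 of the 5 that passed a filter on the same summary, where 16.1% of 3370 genes were 2-fold lower and the median was -0.18. KIF11 at -0.85 and KIF4 at 0.18 did not pass. Whether the mean level or the typical cell is asked about therefore changes the sign at 30 h for KIF11 and KIF23. For KIF20A and KIF2C, lower by both, it changes the size, and KIF4 was higher by both.

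Detection was compared for this reason, a comparison chosen after the levels had been seen. From 6 to 30 h the share of cells above 0 changed by -31.5 percentage points for KIF11, -26.1 for KIF2C, -19.9 for KIF20A, -18.0 for KIF23 and -8.71 for KIF4, so 4 of 5 were lower by at least 10 points. Of 10209 genes compared, 35.4% were lower by at least 10 points, and the median difference was -5.20 points. Among cells with at least 4000 genes the KIF11 share went from 79.6% to 45.3%, KIF2C from 75.5% to 49.1%, KIF20A from 85.7% to 66.0%, KIF23 from 83.7% to 66.0% and KIF4 from 53.1% to 43.4%. A detection rule with equal numbers of genes per cell, being among the 2000 highest of the cell, gave KIF20A 67.9% at 6 h and 47.4% at 30 h, KIF23 45.3% and 38.6%, and KIF2C 32.1% and 24.6%. Under that rule KIF11 went the other way, from 3.77% to 14.0%, as did KIF4, from 1.89% to 7.02%. From such low shares these 2 genes could not be lower by 10 points, and they were not among the 2850 genes compared. Of KIF20A, KIF23 and KIF2C, only KIF20A was lower by 10 points, beside 29.5% of the 2850 genes. In cells that had the gene, median levels at 6 and 30 h were 17.6 and 23.8 TPM for KIF11, 102 and 106 TPM for KIF20A, 52.5 and 79.7 TPM for KIF23 and 47.6 and 62.8 TPM for KIF2C.

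**Figure D2:**
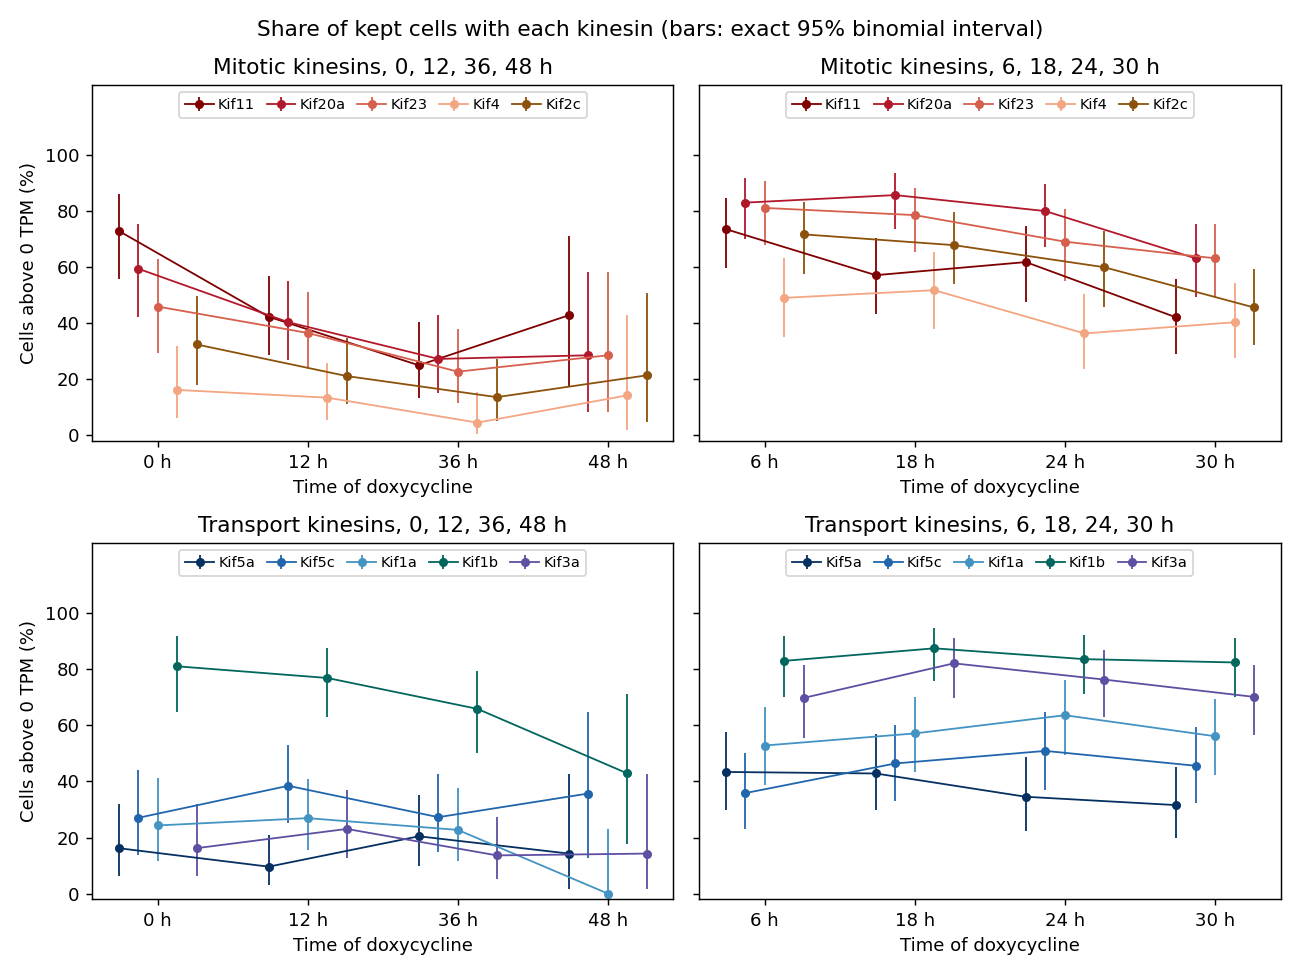
Share of kept cells above 0 TPM (%) for each of the 5 mitotic kinesins (upper row) and 5 transport kinesins (lower row) by time point, with exact 95% binomial intervals as bars, for the sets 0, 12, 36, 48 h (left) and 6, 18, 24, 30 h (right). In the right panels KIF11 goes from 73.6% to 42.1%, while KIF1B stays between 82.5% and 87.5%.

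Counted per cell, at least 4 of the 5 mitotic kinesins were above 0 in 34 of 53 cells at 6 h (64.2%, 49.8 to 76.9%), in 31 of 56 and 23 of 55 at the next times, and in 24 of 57 at 30 h (42.1%, 29.1 to 55.9%). All 5 were seen in 24, 21, 15 and 13 of these cells, and none of the 5 in 7, 2, 3 and 11. At 30 h cells with none or 1 of the 5 (23 of 57) and cells with 4 or 5 (24 of 57) outnumbered those with 2 or 3 (10 of 57). From 0 to 48 h at least 4 were above 0 in 7 of 37, 3 of 52, 1 of 44 and 2 of 14 cells, and none in 0, 11, 19 and 4 cells. All 37 cells at 0 h had a mitotic kinesin, against 25 of 44 at 36 h (56.8%, 41.0 to 71.7%). The number of mitotic kinesins in a cell went up with its number of genes at every time point but 36 h: Spearman's rho was 0.68, 0.41, 0.35 and 0.43 from 6 to 30 h and 0.55, 0.55, -0.01 and 0.58 from 0 to 48 h. The number of transport kinesins also went up with the number of genes, with rho of 0.52, 0.60, 0.46 and 0.52 from 6 to 30 h. From 0 to 48 h its rho was 0.41, 0.43, -0.05 and -0.004. The part of depth in these counts was not tested.

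Of the 5 transport kinesins 1 was lower by at least 10 points from 6 to 30 h, KIF5A at -11.8, beside the 35.4% of all genes. KIF1B changed by -0.563 points, KIF3A by 0.364, KIF1A by 3.31 and KIF5C by 9.76. At least 1 of the 5 was above 0 in 52 of 53 cells at 6 h and in 57 of 57 at 30 h, and at least 4 in 17 of 53 and 19 of 57. Cells with a transport but no mitotic kinesin were 7 of 53 at 6 h (13.2%, 5.48 to 25.3%) and 11 of 57 at 30 h (19.3%, 10.0 to 31.9%). Before doxycycline there were 0 of 37. A limit of 3 cells for a count of 0 allows up to 8.11%, and the exact interval reaches 9.49%. There were then 10 of 52 at 12 h (19.2%, 9.63 to 32.5%), 18 of 44 at 36 h (40.9%, 26.3 to 56.8%) and 3 of 14 at 48 h. Cells with a mitotic but no transport kinesin were 2 of 37, 3 of 52, 6 of 44 and 2 of 14 at 0, 12, 36 and 48 h. At 6 h they were 1 of 53 and at 30 h 0 of 57 (exact interval up to 6.27%). Median genes per kept cell were lower at each later time from 0 to 48 h. The part of depth in these classes was not tested.

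**Figure D3:**
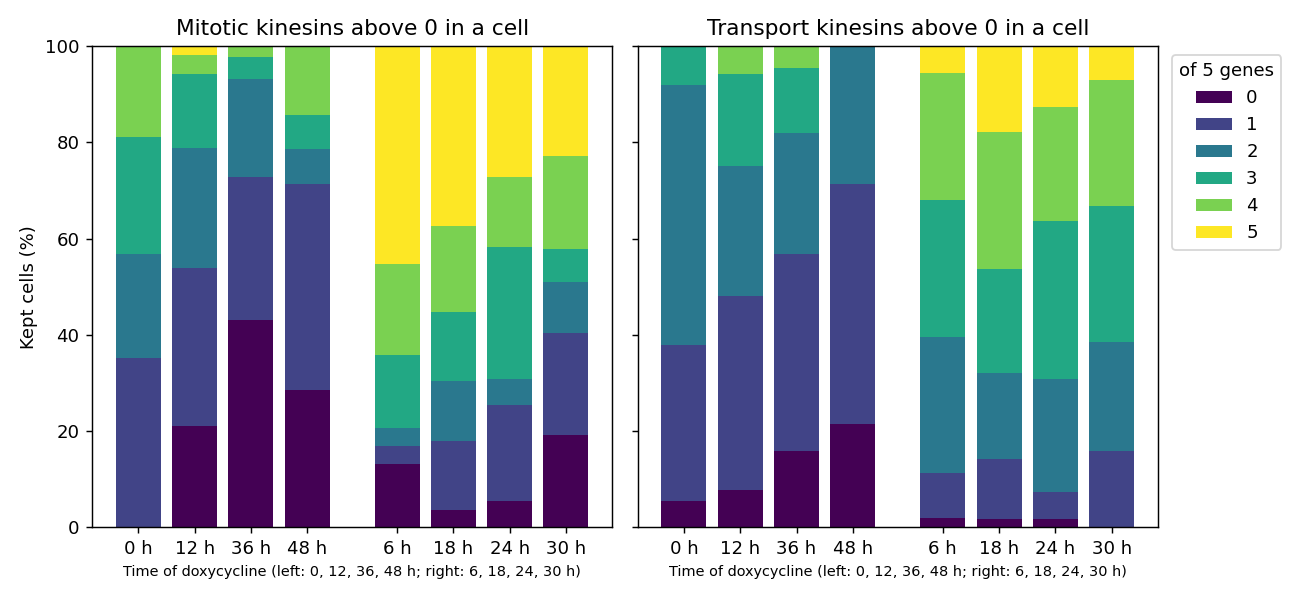
Stacked bars of the share of kept cells (%) with 0 to 5 of the mitotic kinesins (left) and of the transport kinesins (right) above 0 TPM, by time point, with the set 0, 12, 36, 48 h left of the gap and 6, 18, 24, 30 h right of it. Cells with all 5 mitotic kinesins make up 24 of 53 at 6 h and 13 of 57 at 30 h, and at 36 h 19 of 44 cells have none.

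KIF1A, a kinesin-3 that carries synaptic and dense core vesicle precursors down the axon, averaged 4.27, 6.73, 13.3 and 12.0 TPM at 6, 18, 24 and 30 h. Its median cell was at 0.360, 3.80, 2.15 and 3.08 TPM and its highest at 31.0, 33.4, 94.9 and 108 TPM, so cells of every time point overlapped near 0 and the later ones reached further up. The share above 0 was 52.8% at 6 h (28 of 53 cells, 38.6 to 66.7%) and 56.1% at 30 h (32 of 57, 42.4 to 69.3%). The log2 fold was 1.30. KIF1A went the other way over 0, 12 and 36 h, with 9.90, 7.06 and 3.18 TPM, and 0 of the 14 cells of 48 h had it, which at a limit of 3 cells allows up to 21.4%, with an exact interval up to 23.2%. It did not pass the filter in that set.

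KIF1B, a related kinesin-3 whose forms move mitochondria and vesicle precursors, was seen in the most cells among the 5 transport kinesins of the rule in the second set. It averaged 5.99, 12.5, 13.4 and 15.0 TPM from 6 to 30 h with median cells of 3.59, 6.36, 9.33 and 5.39 TPM and highest cells of 33.1, 92.9, 63.1 and 79.0 TPM. It was above 0 in 83.0%, 87.5%, 83.6% and 82.5% of cells, so its log2 fold of 1.20 at 30 h came with an equal share of cells. From 0 to 48 h its means were 41.9, 63.0, 90.8 and 102 TPM in 81.1%, 76.9%, 65.9% and 42.9% of cells. The log2 folds over 0 h were 0.58, 1.10 and 1.27. At 48 h a single cell of 958 TPM held 67.0% of the sum, and without the highest cell the fold was -0.021.

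KIF3A, a kinesin-2 subunit needed for cilia and used in axons, averaged 24.5, 22.7, 50.7 and 48.1 TPM from 6 to 30 h, the highest transport kinesin of the rule in that set. Its median cell was at 7.65, 12.3, 16.7 and 21.8 TPM, and the share above 0 was 69.8% at 6 h (37 of 53 cells, 55.7 to 81.7%) and 70.2% at 30 h (40 of 57, 56.6 to 81.6%). The log2 fold of 0.94 stopped short of 2-fold. It was seen in only 6, 12, 6 and 2 cells at 0, 12, 36 and 48 h, where means of 2.10, 10.2, 26.7 and 120 TPM rested on few cells: 79.4% of the 36 h sum and 87.2% of the 48 h sum lay in a single cell.

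KIF5C, a neuronal heavy chain of kinesin-1, was low in the second set, with means of 1.09, 4.84, 5.08 and 3.28 TPM in 35.8%, 46.4%, 50.9% and 45.6% of cells. Its highest cell held 8.27 TPM at 6 h and 71.7, 50.5 and 48.4 TPM at 18, 24 and 30 h, and at 10 TPM or more it was seen in 0% of cells at 6 h and 14.0% at 30 h. It did not pass the filter there. Over 0, 12, 36 and 48 h its means were 5.87, 30.4, 44.4 and 23.0 TPM in 10 of 37, 20 of 52, 12 of 44 and 5 of 14 cells, and the log2 folds over 0 h were 2.19, 2.73 and 1.81. Median levels in the cells that had it were 8.12, 44.5, 100.4 and 77.0 TPM at these times.

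KIF5A, the kinesin-1 heavy chain found mainly in neurons, averaged 3.19, 3.01, 5.56 and 2.36 TPM from 6 to 30 h, with 23 of 53 cells above 0 at 6 h and 18 of 57 at 30 h. It did not pass the filter in any of the 4 comparisons. At 0 and 12 h it averaged 1.64 and 1.29 TPM, and at 36 h 47.2 TPM, from 9 of 44 cells with a highest cell of 826 TPM. At 48 h it was above 0 in 2 of 14 cells.

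At 30 h against 6 h, 3 of the 5 transport kinesins passed the filter. Of these, 2, KIF1A and KIF1B, were thus at least 2-fold higher, beside 13.9% of all genes that passed. KIF1B came to 0.998, just short of 2-fold, once the median fold of all genes was set to 0, with KIF1A at 1.10, and with a pseudocount of 10 neither gene reached it (0.63 for KIF1A and 0.65 for KIF1B). At 12 h against 0 h, 17.0% of 5848 genes were at least 2-fold higher and 13.0% lower, and KIF5C was the transport kinesin past 2-fold. At 36 h KIF1B and KIF5C were, where 22.5% of 5255 genes were higher and 28.5% lower, and at 48 h they were again, where 22.8% of 5099 genes were higher and 43.4% lower. None of the 5 mitotic kinesins was 2-fold lower at 12, 36 or 48 h, but only 3, 2 and 3 of them passed the filter. KIF11 stood at -0.86, -0.89 and 0.05 and KIF20A at 0.43, -0.99 and 1.44, the last past 2-fold higher through a single cell, with 0.23 left without the highest cell.

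Each of the 5 mitotic kinesins was seen in a smaller share of cells at 12, 36 and 48 h than at 0 h, with median differences of -11.3, -23.2 and -17.4 points. At 12 h 3 of the 5 were lower by at least 10 points, beside 56.7% of 7701 genes. At 36 h all 5 were, beside 85.6% of 7484 genes, and at 48 h 4 were, beside 88.1% of 7507 genes. KIF4, seen in 16.2% of cells at 0 h and in a smaller share later, was not among the genes compared. It counts as lower by at least 10 points only at 36 h. With so few genes and backgrounds this high, no loss of detection stands out for the mitotic kinesins in this set.

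**Figure D4:**
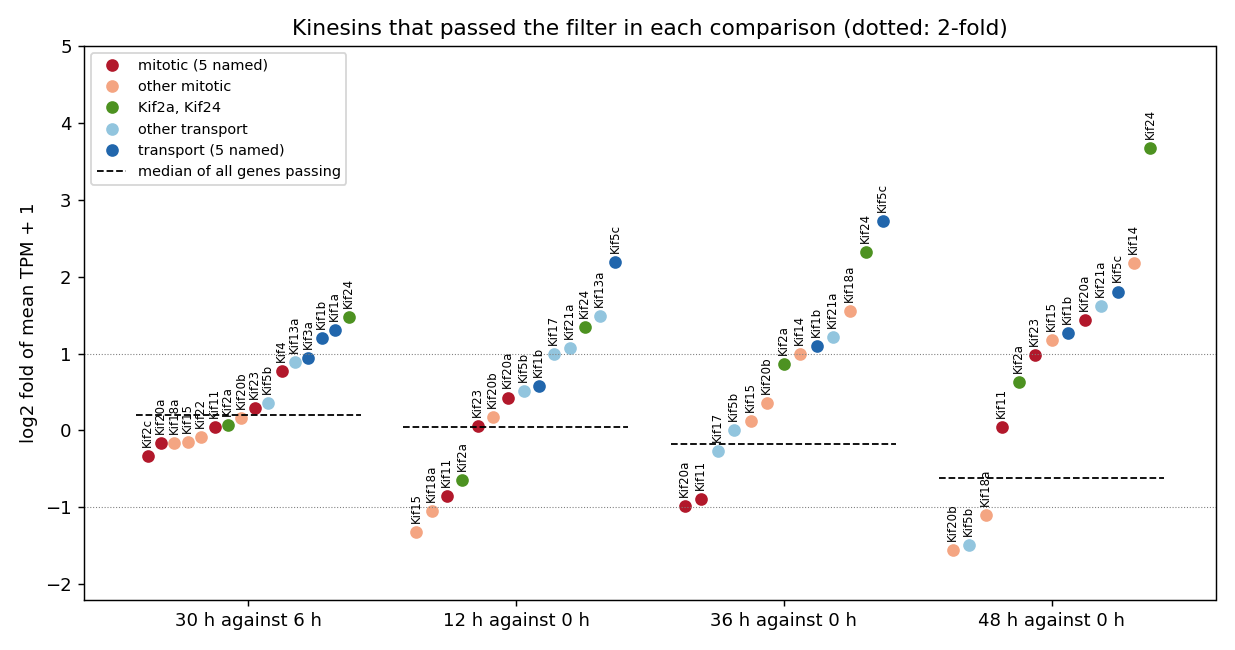
log2 fold of mean TPM + 1 (vertical axis) of each kinesin that passed the filter in the 4 comparisons, coloured by role, with the median of all genes that passed as a dashed line and 2-fold as dotted lines. KIF24 has the highest value in the first and the last comparison (1.47 and 3.67), and KIF5C in the other two (2.19 and 2.73).

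Among the 28 other kinesins, the clearest difference in both sets was that of KIF24, a kinesin-13 of the mother centriole known to hold back the growth of cilia. It averaged 131, 234, 369 and 367 TPM at 6, 18, 24 and 30 h, with median cells of 87.2, 145, 303 and 345 TPM. It was above 0 in 52 of 53, 52 of 56, 54 of 55 and 56 of 57 cells. From 0 to 48 h it averaged 64.1, 164, 326 and 830 TPM with median cells of 50.5, 61.1, 149.6 and 828 TPM. It was seen in 33 of 37, 46 of 52, 37 of 44 and 14 of 14 cells. Both the mean and the median cell were higher at the end of each set than at its start, although the cells overlapped, with highest cells of 1263 and 1309 TPM (6 and 30 h). The log2 folds were 1.47 at 30 h against 6 h, and 1.34, 2.33 and 3.67 at 12, 36 and 48 h against 0 h. The share of cells with KIF24 among their 2000 highest genes was 73.6% at 6 h and 94.7% at 30 h. No annotated gene overlaps its span (chr4:41389964-41464919, minus strand). KIF2A, a kinesin-13 that trims microtubules in neurons and spindles, did not differ 2-fold in any comparison, with log2 folds of 0.07 at 30 h against 6 h and -0.65, 0.87 and 0.63 at 12, 36 and 48 h, the last being -0.26 without the highest cells.

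Of all genes that passed at 30 h against 6 h, 6.03% were at least 2-fold lower and 13.9% higher. Of the other 6 mitotic kinesins 4 passed, and none was 2-fold lower or higher. Their log2 folds were -0.15 for KIF15, which backs up KIF11 in the spindle, -0.16 for KIF18A, which damps chromosome movement, 0.17 for KIF20B, which acts in cytokinesis, and -0.08 for the chromokinesin KIF22. All 6 were seen in a smaller share of cells at 30 h, KIF18A in 45.6% against 81.1%, KIF18B in 29.8% against 54.7%, KIF14 in 45.6% against 67.9%, KIF22 in 59.6% against 79.2%, KIF15 in 77.2% against 90.6% and KIF20B in 77.2% against 84.9%. For 5 of the 6, all but KIF20B, the share was lower by at least 10 points, beside 35.4% of all genes, and 67.7% of the 10209 genes had a lower share by any amount. At 12 h against 0 h KIF15 (-1.32) and KIF18A (-1.04) were at least 2-fold lower. Without the highest cell of each time point KIF15 was again at -1.32, but KIF18A was at -0.30, since a single cell held 62.8% of its 0 h sum. Single cells also carried the later values. KIF18A was at 1.55 at 36 h, where 1 cell held 86.4% of the sum, and at 0.13 without the highest cells, and at 48 h it was at -1.11 and then -0.34. KIF14 was at 2.18 at 48 h, with 85.8% of the sum in 1 cell, and KIF15 at 1.18, with 74.4% in 1 cell, and without the highest cells they were at -0.11 and -0.44. KIF20B was at -1.56 at 48 h and at -2.35 without them. KIF18A overlaps Mettl15 on the other strand.

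Of the other 10 transport kinesins, 2 passed at 30 h against 6 h, KIF13A, which moves endosomes, at 0.89 and KIF5B, the kinesin-1 heavy chain of most tissues, at 0.36. KIF5B averaged 32.4, 49.7, 28.6 and 41.8 TPM from 6 to 30 h, in 92.5% to 96.4% of cells, above its neuronal relatives KIF5A and KIF5C at every one of these times. Over the other set KIF5B was at 152, 217, 153 and 53.6 TPM and its log2 fold at 48 h was -1.49, or -2.76 without the highest cells. KIF13A (1.49) and KIF21A (1.07), a kinesin-4 that restrains microtubule growth, were at least 2-fold higher at 12 h, and KIF21A again at 36 h (1.21) and 48 h (1.62). Without the highest cells KIF13A was at 2.18, a single cell holding 68.2% of its 0 h sum, and KIF21A at 36 h was at 0.77, short of 2-fold. In the second set KIF21A went the other way, with means of 8.90 and 5.62 TPM (6 and 30 h) in 67.9% and 49.1% of cells. KIF17, a kinesin-2 of dendrites and cilia, was at 0.99 at 12 h, or 0.55 without the highest cells, and overlaps Sh2d5 on the same strand. KIF3B, the partner of KIF3A, was low, at 3.37 TPM at 6 h and 3.74 TPM at 30 h. The share of cells at 30 h against 6 h could be compared for 6 of these 10 kinesins. It was lower for 5 of the 6, and by at least 10 points for 3, beside 35.4% of all genes. The median difference was -10.5 points, so smaller shares at 30 h were not confined to mitotic members.

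In all, 20 of the 38 passed the filter in at least 1 of the 4 comparisons, each through its higher time point, so counts over them support nothing more. At 30 h against 6 h 16 passed, of which 3 were at least 2-fold higher and none lower, beside 13.9% and 6.03% of all genes that passed. The members that never passed include the other cilia and signalling kinesins KIF6, KIF7, KIF9, KIF26A, KIF26B and KIF27, all with means of at most 8.23 TPM. KIF2B, KIF12 and KIF4B were at 0 in every kept cell. The symbol KIF4B matched, through a synonym, the transcribed pseudogene Kif4-ps on chromosome 12.

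From 6 to 30 h the mitotic kinesins tended to be high in the same cells. Over the kept cells of a time point, the 10 pairs among the 5 had a median Spearman's rho of 0.54 at 6 h (0.40 to 0.82), 0.60 at 18 h (0.37 to 0.72), 0.47 at 24 h (0.25 to 0.54) and 0.60 at 30 h (0.52 to 0.67). The 10 transport pairs had medians of 0.04, 0.09, 0.08 and 0.07, and the 25 mixed pairs 0.08, 0.05, -0.07 and -0.03. All 10 mitotic pairs were above the median of the transport pairs at each of these 4 times. At 0, 12 and 36 h the mitotic pairs had medians of 0.07, 0.04 and 0.16 (6 pairs at 36 h, where KIF4 had too few cells), and the transport pairs had -0.13, 0.05 and -0.01. The cells of a time point share a sample and the total of the TPM scale and differ in depth, and correlations are given without a test. Between the mitotic and the transport sum of a cell rho was 0.06, -0.11, -0.27 and -0.26 from 6 to 30 h.

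**Figure D5:**
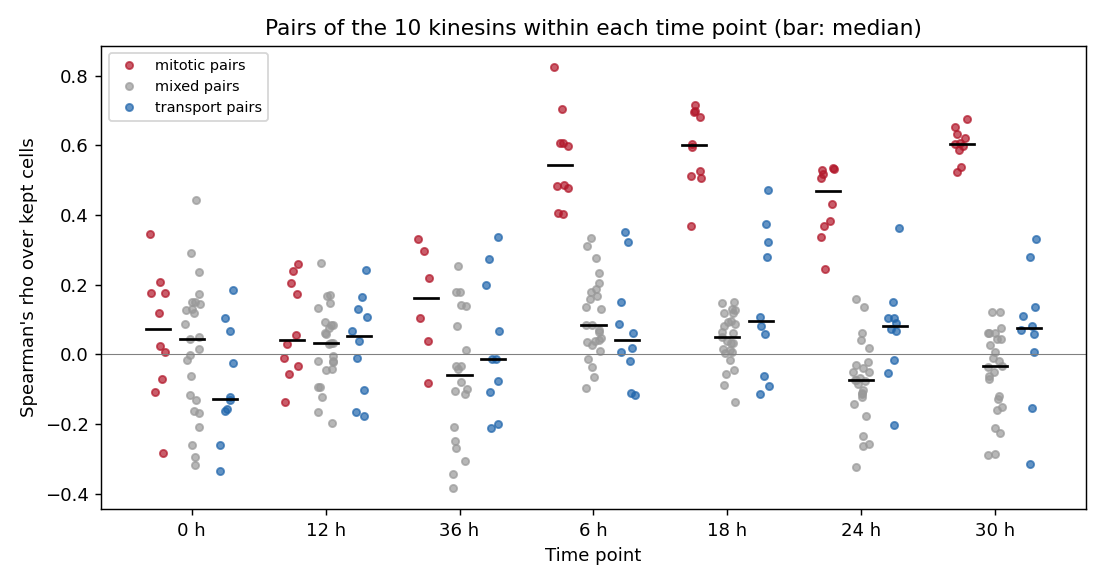
Spearman's rho over kept cells (vertical axis) for each pair of the 10 kinesins within a time point (horizontal axis), as mitotic pairs, mixed pairs and transport pairs, with the median as a bar. At 6, 18, 24 and 30 h the mitotic pairs lie around medians of 0.47 to 0.60 and the other pairs have medians near 0. The highest transport pairs at 18 and 24 h (0.47 and 0.36) lie above the lowest mitotic pairs (0.37 and 0.25). At 0, 12 and 36 h the 3 kinds overlap widely.

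The genes whose levels across cells were most like the mean log2(TPM + 1) of the 5 mitotic kinesins, averaged over 6, 18, 24 and 30 h among 4522 genes, were CCNB1 (mean rho 0.76), TOP2A (0.73), CDK1 (0.73), AURKA (0.72) and CCNF (0.70), against a median of 0.14 over all of them. CCNB1 encodes cyclin B1, which with CDK1 drives entry into mitosis, TOP2A untangles DNA, and AURKA is a spindle pole kinase. For the transport kinesins the nearest of 4525 genes were SEPP1 (0.41), TUBA1A (0.39), D0H4S114 (0.39), WDR6 (0.38) and NPC2 (0.37), against a median of 0.10. TUBA1A encodes an alpha-tubulin of growing neurons. The likeness of the nearest genes was thus about 0.7 to 0.8 for the mitotic and about 0.4 for the transport group.

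Genes that work with kinesins were described by the same measures. All 16 spindle partners passed at 30 h against 6 h, with a median log2 fold of -0.10, beside 0.20 for all genes. Of the 16, 1 was at least 2-fold higher and none lower, beside 13.9% and 6.03% of all genes that passed. The higher gene was RACGAP1, the partner of KIF23 in centralspindlin, at 1.13, and CDK1 was at -0.59, NUSAP1 at 0.56 and BUB1 at 0.53. The share of cells was smaller at 30 h for 15 of the 16, beside 67.7% of all genes, and lower by at least 10 points for 13, beside 35.4%. Of 9 light chains and adaptors 3 passed, and of the 7 whose share could be compared none was lower by 10 points, beside 35.4% of all genes. KLC1, a kinesin-1 light chain, went from 2.82 TPM in 34.0% of cells to 12.0 TPM in 64.9%, a log2 fold of 1.77, while KIFAP3, which links KIF3A to cargo, was at 0.73 and MAPK8IP3 at 0.17. Of 15 genes of dynein, the motor that moves towards the cell body, 12 passed with a median of 0.28. Only DYNLT3 at 1.33 was past 2-fold, beside 13.9% of all genes, followed by DCTN1 at 0.57, NDEL1 at 0.53 and DCTN2 at 0.42. The share of cells was lower by at least 10 points for 3 of the 14 dynein genes compared, beside the same 35.4%. KIFC1, a minus-end kinesin of the spindle that the rule does not match, was at 17.6 TPM at both times. Of the 2 minus-end kinesins whose share could be compared, KIFC1 among them, 2 were lower by at least 10 points, beside 35.4% of all genes.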

How the data were processed

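TPM values for single cells were deposited by the authors as 1 table of 27723 genes and 768 cells, and every column sums to between 999999.35 and 1000000.82 TPM. Per the submitters' processing notes bcl2fastq, Picard and the mm10 genome were used, without versions. Aligner and annotation were not given in the sources used here; column names carry the word rsem. Libraries had single-end reads of 50 bp at a stated mean of 325000 per cell, per the labels' protocols. TPM keeps no depth, so the number of genes above 0 stood in for it. No 2 columns were identical.

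Time points came from the labels. Of the cells, 368 had 2000 or more genes above 0 and were used, and 400 were left out. Per time point the mean TPM, the share of cells above 0 and its exact 95% binomial interval were computed; folds are log2 of mean + 1. With 1 sample per time point no test was made. The genes and lists were chosen with earlier results of these data known. Named genes are the 10 kinesins of the rule, other members that passed the filter in at least 1 comparison, up to 4 passing genes of each further list, taken by the size of the 30 h against 6 h fold, and the 5 genes most like each group; KIF3B, KIF18B, other members described by their shares, Sod1, COL1A2 and POSTN were named after their values were seen. Likeness used genes with at least 10 TPM on average and 25% detection at all 4 times. Symbols were matched to RefSeq (GRCm38.p6), 37 by symbol and 1 by synonym, and overlaps were read from GENCODE M21. The folds and filter were tested on simulated data. Alternatives were other pseudocounts, scaling, cell filters, summaries over cells, detection rules and member lists. The software was Python 3.11.15 with scipy 1.17.1, pandas 2.3.3, numpy 2.4.6 and matplotlib 3.10.9.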

Additional observations from a re-analysis of the deposited data

How the results depend on the processing

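The change in the log2 ratio of mitotic to transport kinesins kept its negative sign in every alternative run, from -2.01 to -0.68 at 30 h against 6 h, -1.63 to -0.64 at 12 h, -3.56 to -0.61 at 36 h and -2.48 to -0.61 at 48 h against 0 h. It moved by over 1.5 times with the mean of log2(TPM + 1), to -2.01 (30 h), -1.63 (12 h), -3.56 (36 h) and -2.19 (48 h). With all 96 cells it was -2.66 at 36 h and -2.12 at 48 h, with cells of at least 1000 genes -2.03 at 36 h, without the highest member of each list -2.90 at 36 h and -2.48 at 48 h, and with all mitotic and all transport kinesins -0.61 at 36 h and -0.61 at 48 h.

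The count of mitotic kinesins at least 2-fold lower, 0 in all 4 comparisons, became 3 at 30 h and 1 in each of the others with the mean of log2(TPM + 1). Without the highest cell of each gene it was 2 at 36 h and 1 at 12 and 48 h, with all 96 cells 1 at 36 h and 1 at 48 h, with cells of at least 1000 genes 2 at 36 h, with a pseudocount of 0.1 or no filter 1 at 36 h, and with all mitotic kinesins 2 at 12 h and 2 at 48 h. The count of transport kinesins at least 2-fold higher was 1 at 12 h and 2 in each of the others. It was 0 in all 4 comparisons with the mean of log2(TPM + 1). At 30 h it was 0 with a pseudocount of 10 and 1 with the median fold set to 0, all 96 cells, cells of at least 1000 genes, or the 2000 highest genes of each cell. At 12 h it was 2 with cells of at least 4000 genes, 0 with the 2000 highest genes, 2 with no filter and 3 with all transport kinesins. At 36 h and 48 h it was 4 with no filter, and 1 with all 96 cells, with cells of at least 1000 genes, without the highest cell of each gene or without the highest member; with a pseudocount of 10 it was 1 at 36 h. The count of mitotic kinesins seen in a smaller share of cells at 30 h, 4 at 10 points or more, was 1 among the 2000 highest genes and 2 with all 96 cells. Among the 2000 highest, KIF11 and KIF4 could not be lower by that much, from 3.77% and 1.89% at 6 h. These alternatives were chosen after seeing the data.

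The share of cells with a mitotic kinesin was 100%, 78.8%, 56.8% and 71.4% at 0, 12, 36 and 48 h and 86.8%, 96.4%, 94.5% and 80.7% at 6, 18, 24 and 30 h. With all 96 cells it was 55.2%, 46.9%, 34.4% and 35.4%, and 57.3%, 75.0%, 66.7% and 56.2%. Among the 2000 highest genes it was 62.2%, 59.6% and 38.6% (0, 12 and 36 h) and 64.3%, 67.3% and 59.6% (18, 24 and 30 h). At 10 TPM it was 75.7% at 0 h, 82.1% at 18 h and 66.7% at 30 h, and without the highest member 89.2% at 0 h. The share with a transport kinesin was 94.6%, 92.3%, 84.1% and 78.6%, and 98.1%, 98.2%, 98.2% and 100%. With all 96 cells it was 42.7%, 53.1%, 52.1% and 46.9%, and 63.5%, 68.8%, 64.6% and 63.5%. Among the 2000 highest genes it was 40.5% and 63.5% (0 and 12 h), and 20.8%, 19.6%, 36.4% and 33.3%. At 10 TPM it was 67.6% and 76.9% (0 and 12 h), and 62.3%, 82.1%, 83.6% and 84.2%. Without the highest member it was 70.3%, 63.5% and 56.8% (0, 12 and 36 h), with cells of at least 1000 genes 88.9% at 18 h, and with cells of at least 4000 genes 100% at 18 h and 24 h. The part of depth in these shares was not tested.

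Of 385 log2 folds of single genes under an alternative, 267 kept their size and direction, 111 moved and 7 reversed; those of genes outside the 10 kinesins were run only without the highest cell, an alternative chosen after seeing the data. The reversed ones were KIF2C at 36 h, -0.36 with all 96 cells and -0.41 with the mean of log2(TPM + 1), KIF20A at 48 h, -0.55 with the mean of log2(TPM + 1), KIF1B at 48 h, -0.72 with that mean and -0.021 without its highest cell, and KIF14 and KIF15 at 48 h, -0.11 and -0.44 without their highest cells. No cell at 36 or 48 h had 4000 genes, so that alternative gave no value there. No paired analysis was possible because each time point is 1 sample and cell numbers pair nothing. Values at 48 h rest on 14 cells of few genes, and a gene at 0 there may be a missed transcript.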
